A study of Mus musculus with 4 samples.

Results

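The p53 pathway was followed through 41 genes, listed for p53 itself and for its targets, regulators and relatives. Of these, 40 were measured among 18193 genes on 4 arrays. Genes were matched by a single symbol in the array annotation, so that 85 of 45101 probe sets carried the 40 genes. Trp53, the gene for p53 itself, was not analysed here, because no probe set bore its symbol in the annotation used. One further entry of the list, Epha2_excluded, named no gene. Npac RNAi cells (2 arrays) were E14 mouse embryonic stem cells transfected with a short hairpin RNA against Npac, the older name of the chromatin gene Glyr1. Control RNAi cells (2 arrays) were E14 cells labelled as a control knockdown, and what their hairpin targets was not given in the labels. The labels describe selected transfected cells and no picked clone. Both grew in serum with LIF, a cytokine that keeps stem cells undifferentiated, and both were harvested after 3 days under puromycin. The labels do not say that arrays of a group came from separate cultures, so p-values measure the spread between these arrays, which may be technical.

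p53 is a transcription factor that is held at a low level by the ubiquitin ligase Mdm2 and its partner Mdm4, and that accumulates when DNA damage or other stress breaks this hold. It binds paired decamers in DNA and raises genes that stop the cell cycle, trigger apoptosis, repair DNA and, through Mdm2 and Ppm1d, restrain p53 again. Mouse embryonic stem cells are known to carry much p53, part of it in the cytoplasm, and to hold low levels of the cell cycle inhibitor Cdkn1a while undifferentiated.

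All values are RMA values, the authors' array summaries on a log2 scale, so that a difference of 1 is a 2-fold change. A gene was called higher or lower at a limma adjusted p under 0.05 over all genes. Across probe sets, which are not independent replicates, Pearson's r was 0.998 within either group and 0.987 to 0.989 between an Npac RNAi and a control array. Glyr1 read 10.23 and 10.20 on the Npac RNAi arrays, against 11.30 and 11.32 on the control arrays, which left 46.9% of the control level. The stem cell markers were at high levels in both groups, and 9 of 12 were called lower in Npac RNAi, beside 18.7% of all genes, with Pou5f1 at -1.17 and Nanog at -0.48. Sox2 was at -0.14 without a call on the deposited values. The poly-A spike-ins, bacterial transcripts that are added to RNA before labelling, gave larger values in Npac RNAi for 24 of 24 probe sets, by 0.54 on average and by 0.21 to 0.81 for single probe sets. The hybridisation controls, added after labelling, read 0.12 higher in 18 of 18 probe sets. Differences are therefore given on the deposited values and after the poly-A shift is taken off. Taking it off lowers each log2 difference by 0.54 and moves the median over all genes to -0.58, against -0.04 as deposited. This second scale takes equal spike-in per amount of RNA on every array as given, which was not tested. The 0.12 of the hybridisation controls was not taken out of the shift, and a fall on this scale is no measure of RNA per cell. After the shift Glyr1 stood at -1.63, Pou5f1 at -1.71, Nanog at -1.02 and Sox2, then called lower (adjusted p = 0.000268), at -0.68. All 12 stem cell markers were then called lower, beside 81.9% of all genes.

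More p53 pathway genes were higher than lower after Npac RNAi. Of the 40 measured, 25 were called higher and 3 lower, and 12 had no call, while 40.8% of all genes were called in either direction. Over all genes 22.1% were called higher and 18.7% lower, while among the p53 pathway genes these shares were 62.5% and 7.5%. Signal level differs between the 2 sets, as 35 members lay at or above the median level of all genes. Tested among genes of that level alone, 25 of these members were called higher and 5 lower, beside 42.1% and 26.5% of those genes. The arrays of the 2 groups did not overlap for 30 members that were higher and 6 that were lower in Npac RNAi, beside 34.1% and 40.1% of all genes (74.2% in either direction), and they overlapped for Trp63, Btg1, Ei24 and Cd82. The median log2 difference of the list was 0.53, beside -0.04 over all genes. At least 1.5-fold, 16 members were called higher, against 8.09% of all genes called higher by that much. At least 2-fold, 10 members were called higher, against 2.92% of all genes. With the poly-A shift taken off, 15 members were called higher and 16 lower, beside 4.98% and 81.9% of all genes, and the list's median was -0.01, beside -0.58. The gap between the list's median and that of all genes is the same on both scales by construction. The sign of the members near the middle of the list therefore depends on the scale, while their order does not.

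**Figure D1:**
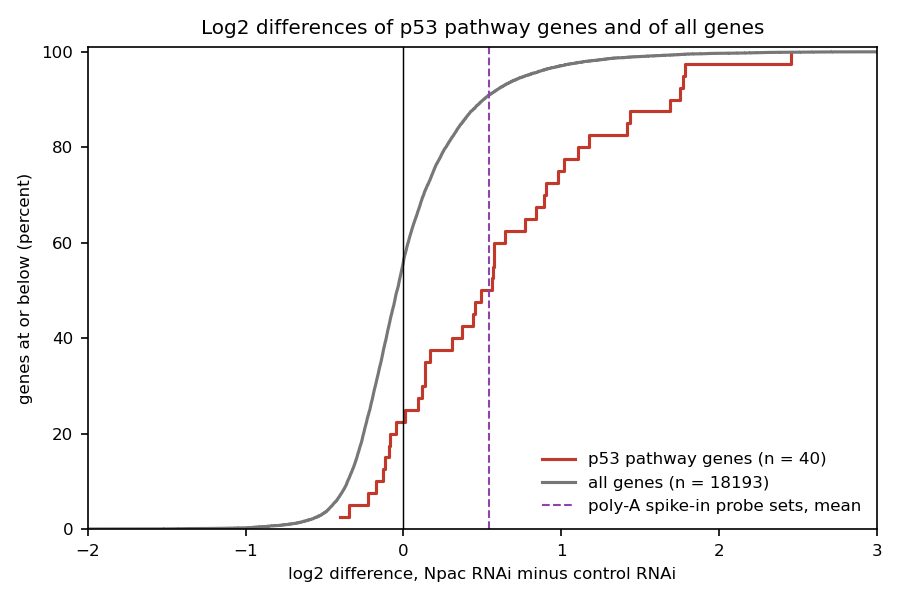
Cumulative percent of genes (vertical axis) at or below each log2 difference, Npac RNAi minus control RNAi (horizontal axis), for the 40 p53 pathway genes and for all 18193 genes. The list lies to the right of all genes, with medians of 0.53 and -0.04, and 50% of its members lie above the dashed line at the mean poly-A spike-in difference of 0.54, against 9.14% of all genes.

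Arrest genes had the highest median of the groups of more than 2 members, 0.87 over 12 genes, and the repair and metabolism genes the lowest, -0.02 over 6 genes. These groups were formed for description and were not tested against each other.

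**Figure D2:**
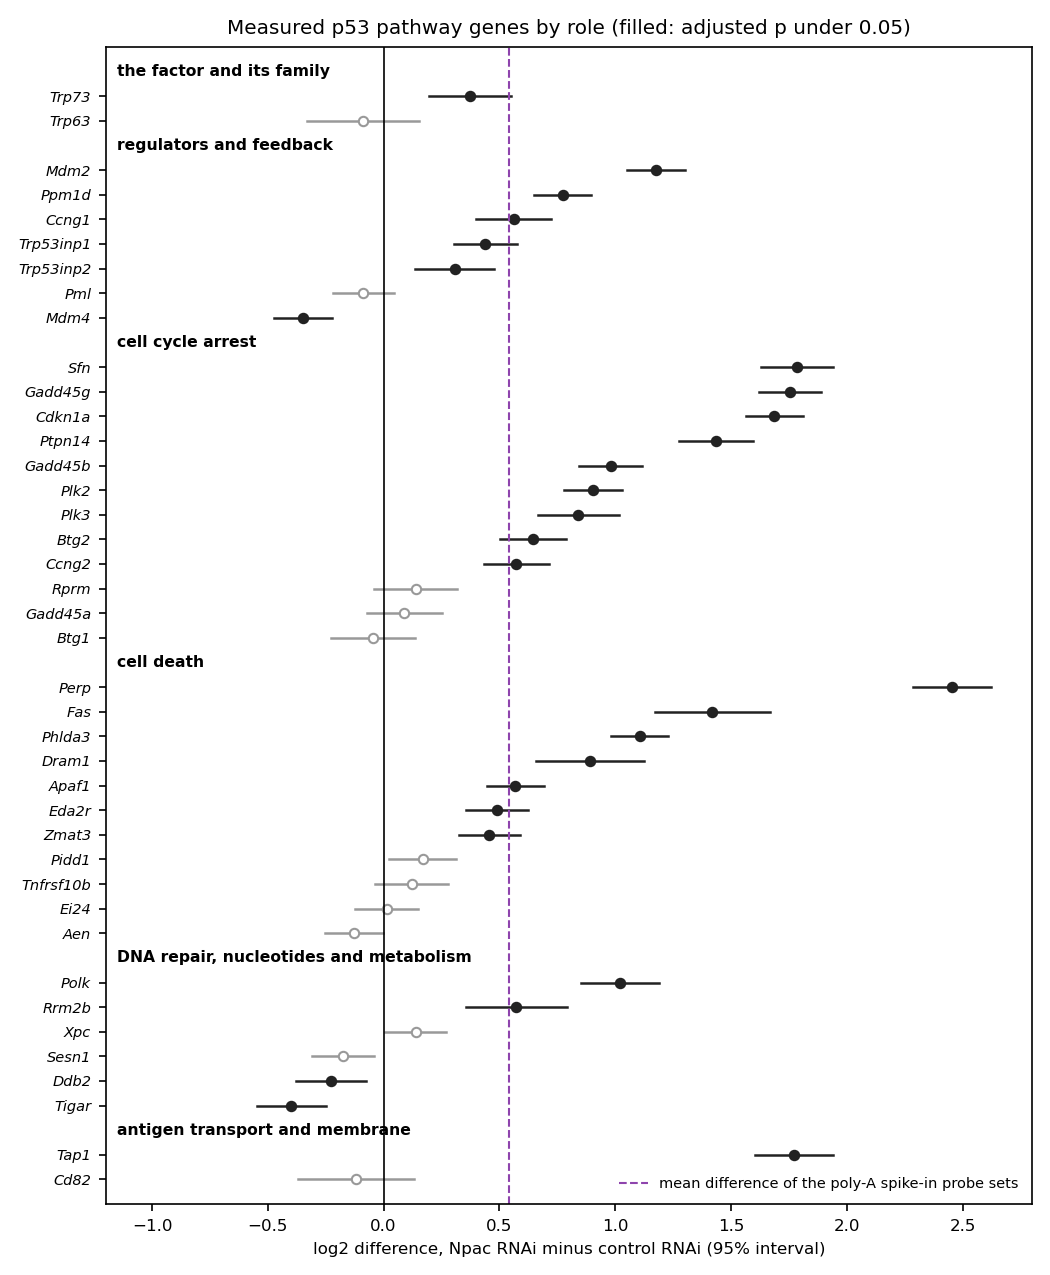
Log2 difference of each measured p53 pathway gene, Npac RNAi minus control RNAi (horizontal axis, with limma's 95% interval), grouped by role. Filled points are the 25 higher and 3 lower calls, open points the 12 genes without a call. The dashed line at 0.54 marks the poly-A spike-in difference, which 20 genes exceed.

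Among the regulators of p53, Mdm2 was called higher and Mdm4 lower on both scales. Mdm2, the ligase that marks p53 for destruction and is itself a p53 target, read 12.52 and 12.50 in Npac RNAi, against 11.32 and 11.35 in control RNAi. Both Npac RNAi arrays lay above both control arrays, a rise of 1.18 (SE 0.0465, adjusted p = 0.000952), or 2.26-fold, and 0.64 after the poly-A shift. Mdm4, the relative of Mdm2 that blocks the activation domain of p53, read 10.44 and 10.44 in Npac RNAi, against 10.80 and 10.77 in control RNAi. It was lower without overlap, at -0.35 (SE 0.046, adjusted p = 0.00829), and at -0.89 after the poly-A shift. Its call was lost without Npac RNAi array 2 (adjusted p = 0.051, range over 15 refits 3.49e-05 to 0.051). Ppm1d, the Wip1 phosphatase that turns the damage response off, rose by 0.77 (SE 0.046, adjusted p = 0.00173) and by 0.23 after the shift, where it was still called. Ccng1, a cyclin-like target that acts with a phosphatase on Mdm2, rose by 0.56 (SE 0.06). Trp53inp1, a stress-induced nuclear partner of p53, rose by 0.44, and its relative Trp53inp2, known mainly from autophagy, by 0.31. After the shift Ccng1 stood at 0.02 and Trp53inp1 at -0.10 without a call, and Trp53inp2 at -0.23 with a call as lower. Leaving out any single array ended the call on Trp53inp2 as higher (adjusted p from 0.0539 to 0.0986, range over 15 refits 0.0017 to 0.474). Pml, the organiser of nuclear bodies that hold p53 modifiers, stood at -0.09 without a call (95% interval -0.22 to 0.04), and at -0.63 after the shift.

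The p53 relatives were measured at low values. Trp73, which binds the same DNA elements, read 7.31 and 7.31 in Npac RNAi, against 6.87 and 7.01 in control RNAi, and was called higher by 0.37 (SE 0.0655, adjusted p = 0.0163). Its Npac RNAi values were identical, so the SE rests on the control arrays and on limma's prior. The call held without control RNAi array 2 and was lost without each of the other arrays (adjusted p up to 0.0746, range over 14 refits 0.00839 to 0.17), and the value was -0.17 after the poly-A shift. Trp63, the family member of stratified epithelium, had overlapping groups, with 5.33 and 5.12 in Npac RNAi against 5.27 and 5.37 in control RNAi. Its mean lay below the 25th percentile of all genes (5.51), and it had no call at -0.09 (-0.63 after the shift).

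Cdkn1a, the p21 inhibitor of cyclin-dependent kinases and the classical p53 target, read 11.86 and 11.85 in Npac RNAi, against 10.15 and 10.18 in control RNAi. The groups were far apart compared with their spread, a rise of 1.69 (SE 0.0456, adjusted p = 0.000704), or 3.22-fold, and 1.15 after the poly-A shift. The second Cdkn1a probe set gave 1.83.

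Promoter sequence was read for the members because p53 acts through a known element. RefSeq promoters of the build GRCm38.p6, which cover 250 bases before to 50 after a transcript start, were found for 33 of the 41 listed genes. They were searched for the p53 decamer, which is its own reverse complement and so reads the same on both strands, and for a full element of 2 adjoining decamers with at most 1 letter off. An exact decamer was present for 11 of the 33 genes and for 9.55% of all 27025 genes with a promoter. A full element was present for 2 of the 33, Cdkn1a and Ccng1, and for 22 of all genes (0.0814%). The list was assembled largely from known p53 targets, so these counts describe the list and say nothing about Npac. Of the 25 members called higher, 21 had a promoter sequence and 5 of these held a decamer. Of the measured members not called higher, 11 had a promoter sequence and 5 of these held one. Sequence outside these promoters was not searched, so a p53 element elsewhere in or near a gene would be missed. The windows below show the full elements of Cdkn1a and Ccng1, the single decamers of the feedback genes Mdm2 and Ppm1d, which rose, and that of Sesn1, which did not. Capitals mark exact decamers and, for Cdkn1a and Ccng1, the full element, all 5′ to 3′ along the gene.
Cdkn1a, chr17:29090878-29090978, plus strand, ending 1 base before the upstream start: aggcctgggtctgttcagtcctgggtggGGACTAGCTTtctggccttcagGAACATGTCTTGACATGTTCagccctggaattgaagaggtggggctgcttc
Ccng1, chr11:40755412-40755531, minus strand: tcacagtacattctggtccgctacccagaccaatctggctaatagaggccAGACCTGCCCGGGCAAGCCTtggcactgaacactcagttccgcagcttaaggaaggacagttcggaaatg
Mdm2, chr10:117710885-117710994, minus strand: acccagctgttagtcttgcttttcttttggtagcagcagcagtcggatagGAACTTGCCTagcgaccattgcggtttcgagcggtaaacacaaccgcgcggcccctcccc
Ppm1d, chr11:85311072-85311181, plus strand: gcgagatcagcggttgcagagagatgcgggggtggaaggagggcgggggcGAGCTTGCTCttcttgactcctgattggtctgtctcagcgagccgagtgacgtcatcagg
Sesn1, chr10:41887216-41887325, plus strand, at a start inside the gene: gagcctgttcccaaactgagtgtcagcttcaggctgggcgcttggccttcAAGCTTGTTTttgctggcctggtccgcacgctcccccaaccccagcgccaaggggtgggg
The Cdkn1a element lies at chr17:29090928-29090947, at -51 to -32 from the upstream start of the gene, whose body spans chr17:29090979-29100722. Its distance from other transcript starts was not taken. In Ccng1 the element lies at -195 to -176 from the start, and the decamers of Mdm2, Ppm1d and Sesn1 begin at -186, -132 and -173 from theirs. A match is a description of letters, and binding of p53 was not measured.

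With Cdkn1a, 9 of the 12 arrest genes were called higher and 0 lower, beside 22.1% and 18.7% of all genes. After the poly-A shift 7 were called higher and 3 lower, beside 4.98% and 81.9%. Sfn, the stratifin gene for an adaptor protein that holds mitotic kinases in the cytoplasm and is known from epithelia, read 8.58 and 8.52 in Npac RNAi, against 6.81 and 6.73 in control RNAi. The groups did not overlap, and the rise was 1.78 (SE 0.0575, adjusted p = 0.000725), or 3.44-fold, and 1.24 after the poly-A shift. Ptpn14, a phosphatase that restrains the growth coactivator Yap, read 11.17 and 11.11 in Npac RNAi, against 9.75 and 9.65 in control RNAi, a rise of 1.44 (SE 0.0594, adjusted p = 0.00101) and 0.90 after the shift. The polo-like kinases Plk2 and Plk3, stress-induced relatives of the mitotic kinase Plk1, moved by similar amounts. Plk2 read 12.02 and 12.02 in Npac RNAi, against 11.13 and 11.10 in control RNAi, a rise of 0.90 (SE 0.0459, adjusted p = 0.00134), and Plk3 rose by 0.84 (SE 0.0644). Both stayed called after the shift, at 0.36 for Plk2 and 0.30 for Plk3. Ccng2, an atypical cyclin of resting cells, rose by 0.57 and stood at 0.03 after the shift. Rprm, the reprimo gene of arrest before mitosis, stood at 0.14 without a call (95% interval -0.04 to 0.32), and at -0.40 after the shift.

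The 3 Gadd45 genes, whose small acidic proteins link stress to kinase signalling and DNA demethylation, did not move alike. Gadd45g read 9.61 and 9.62 in Npac RNAi, against 7.83 and 7.89 in control RNAi, a rise of 1.75 (SE 0.0497, adjusted p = 0.000704), or 3.37-fold, and 1.21 after the shift. Gadd45b read 11.54 and 11.53 in Npac RNAi, against 10.52 and 10.59 in control RNAi, a rise of 0.98 (SE 0.0506, adjusted p = 0.00137) and 0.44 after the shift. Gadd45a, the member that p53 is best known to induce, read 10.04 and 10.13 in Npac RNAi, against 10.03 and 9.96 in control RNAi. Its arrays did not overlap, but the difference of 0.09 had no call (95% interval -0.07 to 0.25), and it was -0.45 after the shift. The interval of Gadd45a ends below those of Gadd45b, 0.84 to 1.12, and Gadd45g, 1.62 to 1.89, and the differences between the paralogues were not tested.

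The anti-proliferative relatives Btg1 and Btg2, which recruit the deadenylase that shortens messenger RNA tails, also differed. Btg2 rose by 0.64 (SE 0.0521, adjusted p = 0.00307), with 12.04 ± 0.0461 in Npac RNAi against 11.39 ± 0.0294 in control RNAi (mean ± SD, n = 2 arrays each, no overlap), and stood at 0.11 without a call after the shift. Btg1 had overlapping groups, with 11.99 and 12.12 in Npac RNAi against 12.14 and 12.06 in control RNAi, and a difference of -0.05 (95% interval -0.23 to 0.14), or -0.59 after the shift. The intervals of the 2 genes do not meet, and their difference was not tested.

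**Figure D3:**
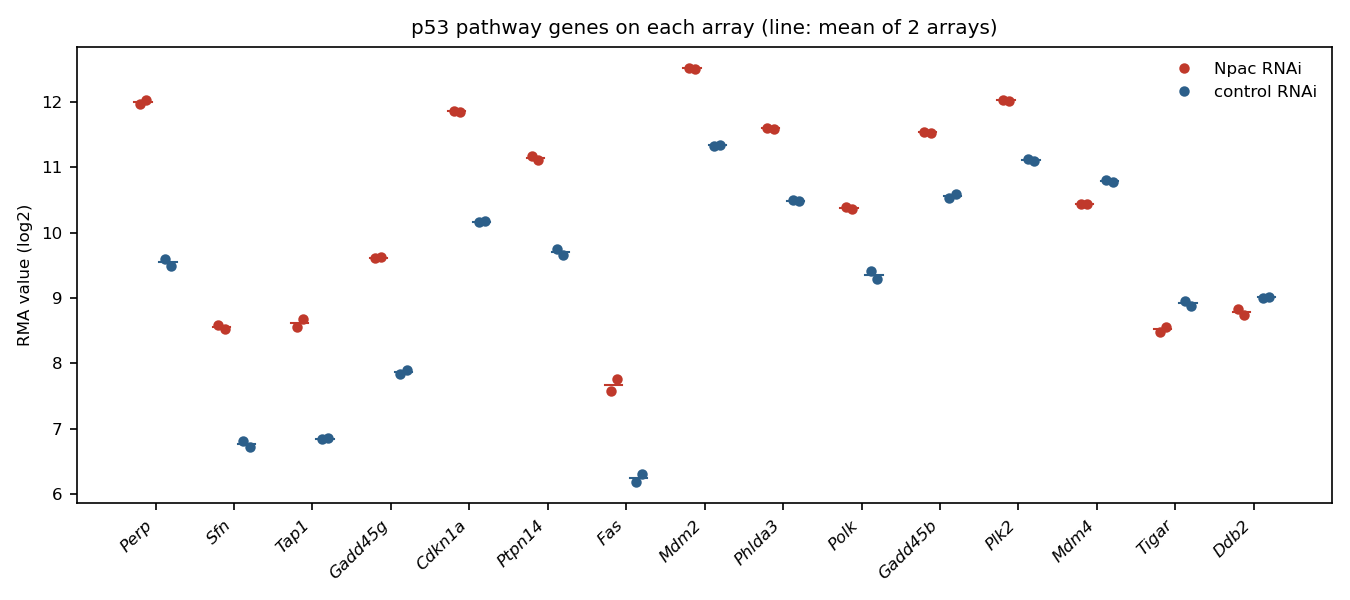
RMA values (log2, vertical axis) on each of the 2 Npac RNAi and 2 control RNAi arrays for the 12 called members with the largest difference and for the 3 members called lower. In the first 12 genes, from Perp to Plk2, every Npac RNAi array lies above both control arrays, and in Mdm4, Tigar and Ddb2 every one lies below.

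Of the 11 cell death genes, 7 were called higher and 0 lower, beside 22.1% and 18.7% of all genes. After the poly-A shift 4 were called higher and 4 lower, beside 4.98% and 81.9%. Perp, a desmosomal tetraspan protein that p53 induces in apoptosis and p63 in epithelia, read 11.97 and 12.03 in Npac RNAi, against 9.60 and 9.49 in control RNAi. This was the largest difference in the list, 2.45 (SE 0.0621, adjusted p = 0.000704), or 5.48-fold, and 1.91 after the poly-A shift. Fas, the death receptor, read 7.57 and 7.76 in Npac RNAi, against 6.18 and 6.32 in control RNAi, a rise of 1.42 (SE 0.0916, adjusted p = 0.00195), or 2.67-fold, and 0.88 after the shift. Tnfrsf10b, the other death receptor of the list, which binds the ligand TRAIL, stood at 0.12 without a call (95% interval -0.04 to 0.28), at low values of 5.97 and 5.87 in Npac RNAi against 5.78 and 5.82 in control RNAi. Its second probe set gave 0.41 at a mean value of 5.85. Tnfrsf10b was called higher with other choices of probe set and after a further quantile normalization (0.19). Phlda3, a target that competes with Akt for membrane lipids and so lowers survival signalling, read 11.60 and 11.59 in Npac RNAi, against 10.50 and 10.48 in control RNAi. It rose by 1.11 (SE 0.0455, adjusted p = 0.00101), or 2.15-fold, and by 0.57 after the shift. Dram1, a lysosomal protein of p53-driven autophagy, rose by 0.89 (SE 0.086, adjusted p = 0.0043), and by 0.35 after the shift.

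Smaller rises were seen for Apaf1, the scaffold of the apoptosome (0.57, SE 0.0452), for Eda2r, a receptor for the ectodysplasin variant A2 (0.49, SE 0.0499), and for Zmat3, an RNA-binding target (0.46, SE 0.0487). After the poly-A shift these 3 stood at 0.03, -0.05 and -0.08, none with a call. Pidd1, the scaffold that activates caspase-2, had a difference of 0.17 that did not pass the test (adjusted p = 0.0666), and Aen, an apoptosis-enhancing nuclease, one of -0.13 (adjusted p = 0.0895). Ei24, an endoplasmic reticulum protein, had overlapping groups and stood at 0.01. After the shift Pidd1, Aen, Ei24 and Tnfrsf10b were called lower, at -0.37, -0.67, -0.53 and -0.42, beside a median of -0.58 over all genes.

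DNA repair and metabolism genes of the pathway were split. Polk, a translesion DNA polymerase, read 10.39 and 10.36 in Npac RNAi, against 9.42 and 9.30 in control RNAi, a rise of 1.02 (SE 0.0625, adjusted p = 0.00179), or 2.03-fold, and 0.48 after the shift. Rrm2b, the p53-inducible subunit of ribonucleotide reductase, read 8.71 and 8.73 in Npac RNAi, against 8.24 and 8.05 in control RNAi, a rise of 0.57 (SE 0.0803, adjusted p = 0.00944), and stood at 0.03 after the shift. That call was lost without Npac RNAi array 2 (adjusted p = 0.0514, range over 15 refits 0.00022 to 0.733). Ddb2 and Xpc, which recognise ultraviolet damage in nucleotide excision repair, are both known p53 targets. Ddb2 was called lower, with 8.83 and 8.73 in Npac RNAi against 9.01 and 9.01 in control RNAi (-0.23, SE 0.0556, adjusted p = 0.0366). Leaving out any single array ended its call (adjusted p from 0.0622 to 0.15, range over 15 refits 0.00027 to 0.15). Xpc stood at 0.14 without a call (adjusted p = 0.0851), and at -0.40 after the shift.

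Tigar, a phosphatase that diverts sugar from glycolysis to the pentose phosphate pathway, was the member with the lowest difference. It read 8.48 and 8.55 in Npac RNAi, against 8.95 and 8.89 in control RNAi, and was called lower (-0.40, SE 0.0552, adjusted p = 0.00911). That call was lost without control RNAi array 1 (adjusted p = 0.0512, range over 15 refits 9.79e-05 to 0.0647). Sesn1, a sestrin that restrains mTORC1 signalling, stood at -0.17 and did not pass the test (adjusted p = 0.0533). After the poly-A shift Tigar, Ddb2 and Sesn1 were called lower at -0.94, -0.77 and -0.71.

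Of the remaining members, Tap1, the peptide transporter for antigen presentation, which p53 and interferon both induce, read 8.56 and 8.68 in Npac RNAi, against 6.84 and 6.86 in control RNAi. It rose by 1.77 (SE 0.062, adjusted p = 0.000798), or 3.42-fold, and by 1.23 after the shift. Cd82, a tetraspanin that suppresses metastasis, had overlapping groups and stood at -0.12 without a call (95% interval -0.37 to 0.13), and at -0.66 after the shift.

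The poly-A shift divided the 25 higher calls into those that kept the call and those that did not. Under it 15 stayed called higher, 9 lost the call and 1, Trp53inp2, was called lower. The 12 members without a call on the deposited values were all called lower, and so were the 3 lower ones. This made 15 higher and 16 lower, beside 4.98% and 81.9% of all genes. Scaling on the hybridisation controls gave 24 higher and 6 lower (15.6% and 35.1% of all genes), centring on the array medians 25 and 5 (19.4% and 25.6%), and a further quantile normalization 25 and 6 (18.9% and 21.3%). A set of 13 members was called higher under each of the 16 alternative settings that tested it: Perp, Sfn, Tap1, Gadd45g, Cdkn1a, Ptpn14, Fas, Mdm2, Phlda3, Polk, Gadd45b, Plk3 and Ppm1d. Fas, at a mean value of 6.96, lay below the median level of all genes (7.49) and was not tested with the dimmer genes left out. The share of all genes called higher under every setting was not counted, and it cannot exceed the 4.98% called higher with poly-A scaling. None of the 3 lower calls held under all of the settings.

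With the probe sets of a gene averaged, 23 members were called higher and 3 lower, beside 18.6% and 18.7% of all genes, and with the probe set of largest interquartile range 27 and 4, beside 24.3% and 24.4%. Letting limma's prior follow the level gave 25 and 5, beside 26.1% and 20.7%. Without moderation of the variances 20 and 1 were called, beside 8.56% and 5.46%. At an adjusted p under 0.01 there were 23 and 2, beside 11.6% and 5.57%. Among the 35 members at or above the median level of all genes 25 and 5 were called, beside 42.1% and 26.5% of the genes tested there. With the array number as a block the counts were 25 and 2, beside 14.9% and 9.15%, and with the numbers crossed 24 and 2, beside 20.6% and 18%. Without Npac RNAi array 1 they were 23 and 2 (15.2% and 10.8% of all genes), and without Npac RNAi array 2 they were 22 and 1 (12.1% and 6.82%). Without control RNAi array 1 they were 23 and 1 (14.4% and 8.2%), and without control RNAi array 2 they were 24 and 2 (11.5% and 5.43%).

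**Figure D4:**
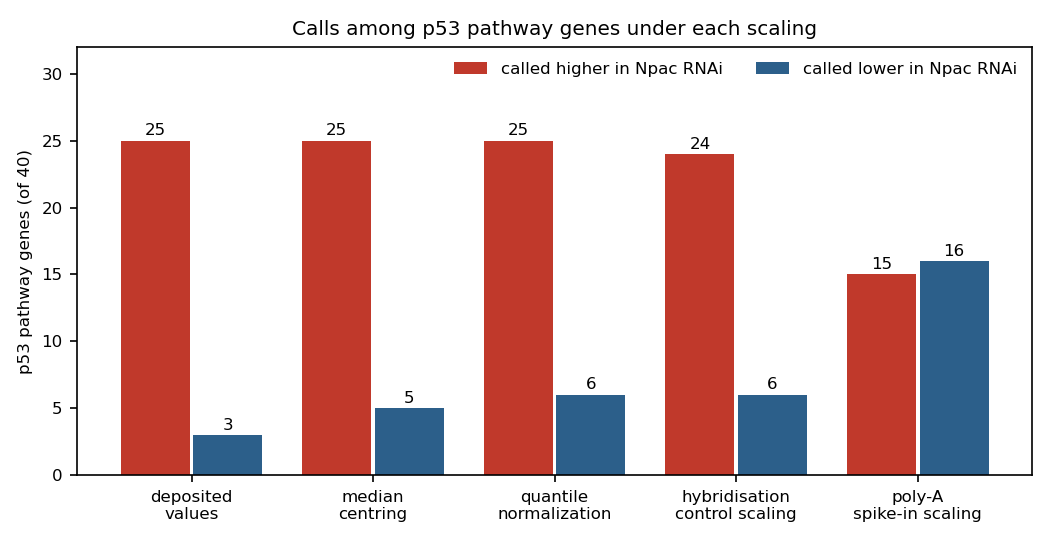
Number of the 40 p53 pathway genes called higher and lower in Npac RNAi (limma adjusted p under 0.05) under each of 5 scalings. The counts stay at 24 or 25 higher and 3 to 6 lower in the first 4 scalings, and become 15 and 16 when the poly-A spike-ins set the scale.

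The choice of probe set changed a size, sign or call for several members. Of the 40 genes, 14 had 1 probe set and 26 had several. Over all 85 probe sets 40 were called higher (47.1%, beside 17.4% of the 34945 probe sets with 1 symbol), 9 lower (10.6%, beside 16%) and 36 had no call. Mdm4 was below 0 in all of its 4 probe sets, from -0.53 to -0.11, and Mdm2 above 0 in all 3, from 0.55 to 1.24. Probe sets spanned more than 1 for 3 genes. In Tap1 1 probe set gave 1.77 and the other 3 gave at most 0.02, with mean values from 3.47 to 5.88. In Plk2 the second probe set gave -0.12 at a mean value of 4.81, and in Gadd45b the 3 gave 0.31, 0.98 and 1.38. With all probe sets averaged, Tap1 stood at 0.45 and was still called, and Plk2 at 0.39 without a call (adjusted p = 0.0623, range over 15 refits 3.92e-08 to 0.0623). Averaging also ended the calls on Trp73 (0.19) and Trp53inp2 (0.05), and Tnfrsf10b (0.26) was then called higher. With the probe set of largest interquartile range, Tnfrsf10b (0.41) was called higher and Trp63 (-0.38, at a mean value of 3.81) lower. Signs differed between probe sets for 7 genes, namely Tap1 by a negligible amount, Plk2, Trp53inp2, Btg1, Pml, Cd82 and Aen. In Aen 1 probe set was called lower (-0.28) and another higher (0.41). In Trp53inp2 the second was called lower (-0.21), at a mean value of 4.69 against 9.19 for the one used. Neither gene therefore has a settled direction.

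**Figure D5:**
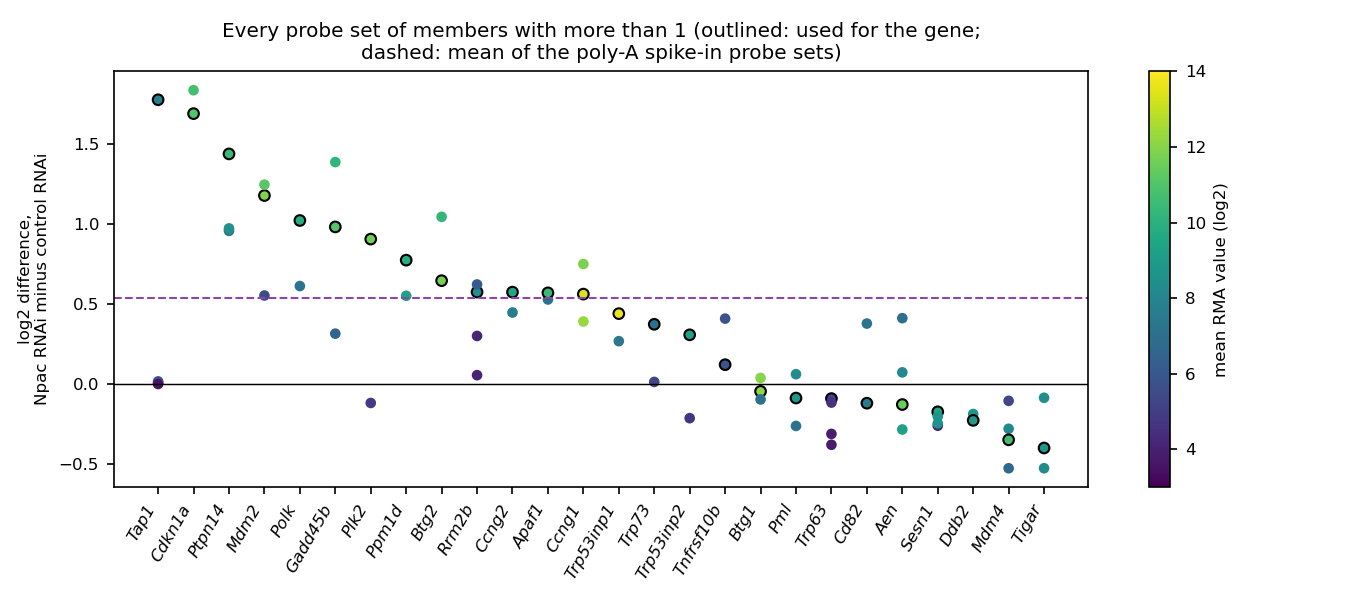
Log2 difference, Npac RNAi minus control RNAi (vertical axis), of every probe set of the 26 members that had more than 1, with colour giving the mean RMA value. Outlined points represent the gene in the text, and the dashed line marks the poly-A spike-in difference of 0.54. In Tap1 and Plk2 the probe sets near 0 are those with low values.

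Of 37 measured upstream regulators of p53 (39 listed), 14 were called higher (37.8%, beside 22.1% of all genes) and 7 lower (18.9%, beside 18.7%), with a median of 0.10. After the poly-A shift 7 were called higher and 27 lower, beside 4.98% and 81.9% of all genes. The damage kinases Atm (-0.39, SE 0.0464) and Chek2 (-0.57, SE 0.0548), which activate p53 by phosphorylation, fell, and so did the deacetylase Sirt1 (-0.66, SE 0.0611), which restrains it. Chek1, the replication checkpoint kinase, chosen after its value was seen, fell by 0.51. Other kinases named among these regulators, such as Atr, Prkdc and Hipk2, are not given one by one. The rises with the smallest adjusted p were in the lysine methyltransferases Setd7 (1.31, SE 0.0506) and Smyd2 (0.80, SE 0.0484), both known to modify p53, and Daxx (0.80, SE 0.0469), a histone chaperone that binds Mdm2. After the shift Setd7 stood at 0.77, Smyd2 at 0.26 and Daxx at 0.26, all still called higher, and Atm stood at -0.93, Chek2 at -1.11, Sirt1 at -1.2 and Chek1 at -1.05.

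Of 41 further p53 targets outside the list (47 named), 24 were called higher (58.5%, beside 22.1% of all genes) and 7 lower (17.1%, beside 18.7%), with a median of 0.27. After the shift 8 were called higher and 23 lower, beside 4.98% and 81.9% of all genes. The rises with the smallest adjusted p were in the LIM-domain gene Crip2 (1.35, SE 0.048), the matrix protein gene Thbs1 (2.17, SE 0.0818) and the cytokine gene Lif (1.5, SE 0.065). The falls chosen in the same way were in the drug transporter gene Abcb1a (-0.80, SE 0.0533), the replication clamp gene Pcna (-0.40, SE 0.0501) and Igfbp3 (-0.49, SE 0.063), which binds insulin-like growth factors. The call on Igfbp3 was lost without control RNAi array 2. After the shift Crip2 stood at 0.81, Thbs1 at 1.63, Lif at 0.96, Abcb1a at -1.34, Pcna at -0.94 and Igfbp3 at -1.03. The BH3-only apoptosis genes Pmaip1 (0.84) and Bbc3 (0.66), chosen after their values were seen, rose on the deposited values. After the shift Pmaip1 kept its call (0.30) and Bbc3 did not (0.12). Bax and Bid, related genes named among the same targets, are not given one by one, so Pmaip1 and Bbc3 do not stand for them.

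Trophectoderm and epithelial markers moved with the same contrast, while calls among fibroblast markers stayed near the shares of all genes. Of 16 trophectoderm markers, genes of the layer that forms the placenta, 12 were called higher and 0 lower, beside 22.1% and 18.7% of all genes (10 and 3 after the poly-A shift, beside 4.98% and 81.9%), and 3 lay below the 25th percentile of all genes. Their mean RMA value was 8.98 on both Npac RNAi arrays, against 7.65 and 7.62 in control RNAi, with differences of 2.32 for Gata3 and 2.27 for Gata2 (1.78 and 1.73 after the shift). Of 10 epithelial markers all 10 were called higher, beside 22.1% of all genes (6 after the shift, beside 4.98%), with a mean of 10.11 and 10.14 in Npac RNAi, against 8.90 and 8.91 in control RNAi, among them Cldn4 (2.36, and 1.82 after the shift) and the desmosome gene Dsp (1.61 and 1.07). Perp and Sfn, first and second of the list by size, are also known as epithelial genes, and the part of these markers in the result was not tested. Fibroblast markers, listed for feeder cells, gave 2 higher (14.3%) and 3 lower (21.4%) of 14, shares near those of all genes (1 and 12 after the shift, 12 lower of 14 being near 81.9%), with means of 6.35 and 6.31 in Npac RNAi, against 6.35 and 6.27 in control RNAi. Among the called ones were Pdgfrb (0.79, and 0.25 after the shift) and S100a4 (0.36 and -0.18) above, and Prrx1 (-0.29 and -0.83) and Pdgfra (-0.49 and -1.03) below. The calls on S100a4, Prrx1 and Pdgfra were lost when single arrays were left out (highest adjusted p 0.0887, 0.0639 and 0.0764), and 6 of the 14 lay below the 25th percentile of all genes. In such bulk RNA, fewer cells of a type and less RNA per cell cannot be told apart.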

How the data were processed

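The deposited values are RMA values on a log2 scale, 1 per probe set and array. RMA is named without a version, per the submitters' processing notes. No log base was stated, and the log2 scale was inferred from the values, with array medians of 6.41 to 6.44. RMA gives all arrays like distributions, so a difference is relative to most other transcripts. Of 45101 probe sets, 64 were controls, 34945 had 1 symbol, 932 had several and 9160 were unnamed. Symbols were updated through RefSeq (GRCm38.p6). A gene with several probe sets was represented by that of highest overall mean, and dim genes were kept. The comparison used lmFit and eBayes of limma 3.58.1 (R 4.3.3) (group as the only term, Benjamini-Hochberg over 18193 genes, 2 residual and 2.28 prior degrees of freedom), tested on simulated data. The poly-A setting subtracts each array's mean over 24 dap, lys, phe and thr probe sets. Members, lists and tests were chosen with earlier results of these data known. Other scalings, probe set choices, variance models, a level filter, blocks and left-out arrays were tried. Values on each array are printed for Mdm2, Mdm4, Cdkn1a and the 12 called members with the largest difference, and for others where they help. From the lists of regulators and targets up to 3 called genes with the smallest adjusted p in each direction are named, from marker lists up to 2, beside Pou5f1, Nanog and Sox2.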

Additional observations from a re-analysis of the deposited data

Results flagged for a closer look

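The control probe sets, which enter no gene test, read higher in Npac RNAi. The 24 poly-A spike-in probe sets, which read 4 bacterial transcripts and so are not independent, averaged 9.15 and 9.24 on the Npac RNAi arrays, against 8.70 and 8.61 on the control arrays, a difference of 0.54. The 18 hybridisation control probe sets averaged 11.78 and 11.84 in Npac RNAi, against 11.69 and 11.69 in control RNAi, a difference of 0.123. The 3 probe sets for 18S ribosomal RNA differed by -0.43. Outlying arrays were not tested, as each group has 2.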

How the results depend on the processing

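On the deposited values 7425 genes were called. The count was 15801 with poly-A scaling, 2551 without moderation, 3129 at an adjusted p under 0.01 and 3088 to 4731 with 1 array left out, where the lone array of a group is assumed to vary like the other group. Same-numbered arrays deviated oppositely (r = -0.16 across 34945 probe sets), and nothing says that a number is shared. With the replicate block 4375 genes were called, 25 members higher and 2 lower, and Ddb2 was the member call lost. With the crossed replicate block, added after this was seen, 7033 genes, 24 and 2 members were called. Higher calls made up 54.1% of all calls as deposited, 43.2% after centring, 30.8% with hybridisation control scaling and 5.73% with poly-A scaling.

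The 25 members called higher became 15 with poly-A scaling and stayed between 20 and 27 in the other settings, 22 to 24 with 1 array left out. The 3 called lower became 16 with poly-A scaling, 6 after quantile normalization and with hybridisation control scaling, and 5 after centring, with a level-dependent prior and with the dimmer genes left out. They became 1 without moderation and 1 or 2 with 1 array left out, fewest without Npac RNAi array 2 and without control RNAi array 1. Without moderation the calls on 7 members were lost. The list's median of 0.53 became 0.44 after quantile normalization, 0.40 with hybridisation control scaling, 0.42 with the mean of probe sets and -0.014 with poly-A scaling, and lay between 0.47 and 0.54 with 1 array left out.

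With poly-A scaling the sign turned for Trp73 (-0.17), Trp53inp1 (-0.10), Trp53inp2 (-0.23), Gadd45a (-0.45), Rprm (-0.40), Tnfrsf10b (-0.42), Eda2r (-0.050), Ei24 (-0.53), Zmat3 (-0.083), Pidd1 (-0.37), Xpc (-0.40) and S100a4 (-0.18). Hybridisation control scaling turned Gadd45a (-0.033), Tnfrsf10b (-0.0023) and Ei24 (-0.11), and Ei24 also turned after centring (-0.039) and quantile normalization (-0.023). Other probe set choices turned Btg1 (0.038, largest interquartile range), Aen (0.018 with the mean, 0.41 with the largest range) and Cd82 (0.13 and 0.38). With 1 array left out Trp63 ran from -0.19 to 0.010, Btg1 from -0.11 to 0.016 and Ei24 from -0.014 to 0.040. The causes were not tested. With 2 arrays per group, single calls near the threshold are the least certain, and low values near the array background limit Trp63 and Tnfrsf10b. Fas, called higher, also had low control RNAi values of 6.18 and 6.32, below the medians of those arrays (6.43 and 6.44).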
